A study of Mus musculus with 8 samples.

Results

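Genes of the transforming growth factor beta (TGF-beta), bone morphogenetic protein (BMP) and activin pathway were compared between smooth muscle cells with and without the calcium pump PMCA4. The members are 47 genes chosen by symbol: ligands, the proteins that keep TGF-beta latent, receptors, SMADs, antagonists and 2 genes named for TGF-beta. Of these, 43 had at least 1 probe on the array, 65 probes in all, out of 16593 genes with a probe. Gdf15, Smad7, Fstl3 and Tgfb1i1 had no probe under their symbol and were not analysed here. A probe counted as detected on an array where its deposited detection p-value was under 0.05, and a probe detected on at least 4 of the 8 arrays was tested. On that rule 32 members were tested, and 29 of these were detected on all 8 arrays.

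Each of the 8 arrays held total RNA of primary vascular smooth muscle cells from the carotid artery of male C57bl6 mice. Of these, 4 arrays were labelled PMCA4 knockout and 4 PMCA4 wild type, and the labels give no age and do not name the deleted part of the gene or the cells in which it was deleted. All cells, of both genotypes, had been synchronised by serum, then exposed to serum plus PDGF-BB, an isoform of platelet-derived growth factor and a mitogen of smooth muscle cells, labelled with Hoechst, which stains DNA, and sorted by flow cytometry for the early G1 phase of the cell cycle. Whether the 4 samples of a genotype stem from different animals or cultures is not in the labels. The p-values therefore rest on the spread among these samples alone, and that spread may be technical.

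In this pathway, dimeric ligands bring together type I and type II receptor kinases, and the type I receptor phosphorylates receptor-regulated SMADs, which enter the nucleus with SMAD4. TGF-beta and activin mainly use SMAD2 and SMAD3, and BMPs mainly use SMAD1 and SMAD5, while inhibitory SMADs, SMURF ubiquitin ligases and secreted binding proteins hold the signal back. In the artery wall, TGF-beta signalling is known for promoting contractile and matrix gene expression in smooth muscle, and BMP receptors are known from inherited disease of the pulmonary arteries.

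Between 11697 and 11987 probes were detected per array, and 8302 genes were tested in all. Arrays of the same genotype correlated at 0.991 to 0.996 over tested probes, against 0.939 to 0.947 between genotypes. The transcript of the pump itself did not set the groups apart: the only detected probe of Atp2b4, the gene of PMCA4, averaged 6.95 ± 0.27 on arrays labelled knockout and 6.89 ± 0.14 on arrays labelled wild type (normalized log2 intensity, SD, n = 4 each), a difference of 0.06 (limma adjusted p = 0.719). No source used here places this probe relative to the deleted part. Inside that part, its level would go against the knockout label, and outside it the probe checks nothing. Below, knockout and wild type therefore mean the arrays so labelled, and every direction rests on those labels. Of the smooth muscle markers, Acta2, Tagln, Lmod1 and Smtn were detected on all 8 arrays, Cnn1 and Synpo2 on no array, and Myh11, Mylk, Actg2 and Des on no wild-type array. Of 11 endothelial markers on the array, Pecam1, Cdh5, Kdr, Tek, Tie1 and Vwf were not detected on any array, while Flt1 and Plvap were detected on all 8, Esam on 3 knockout and 4 wild-type arrays, Emcn on 2 wild-type arrays and Robo4 on 1 knockout array. Of 13 fibroblast markers on the array 10 rose (76.9% passed a limma adjusted p of 0.05, beside 57.6% of all genes tested). Col15a1, Fbln1 and Clec3b did not pass (limma adjusted p = 0.711, 0.663 and 0.176). Summed over the 13, normalized intensity ran from 68501 to 71533 on knockout arrays and from 9319 to 9774 on wild-type arrays. Serpinf1 and Dcn, at 14.62 and 14.14 on the log2 scale, weigh most in the knockout sums. In the wild-type sums Col15a1, at 11.87, weighs most. Lum alone was detected on no wild-type array and was tested through knockout arrays only. The smooth muscle list, 10 genes on the array, summed to between 67968 and 71313 on knockout arrays and to between 35307 and 40882 on wild-type arrays. Acta2, the brightest of them, averaged 15.93 in knockout and 15.10 in wild type on the log2 scale and so weighs most in these sums. Of the 7 tested, 6 rose, with Actg2 and Mylk at least 32.1-fold and 11.7-fold higher. All 7 passed, beside 57.6% of all genes tested. Myh11, Mylk and Actg2 were tested through knockout arrays alone and had to differ to be tested at all. Smtn fell 1.17-fold at its brightest probe. The skeletal muscle list summed to between 2511 and 2694 on knockout arrays and to between 286 and 371 on wild-type arrays, with Acta1 33.2-fold higher and Myod1, Myh1, Myh4 and Ckm detected on no array. Summed levels were also higher for Schwann and neuron markers (1334 to 1436 in knockout, 679 to 786 in wild type) and for chondrocyte and osteoblast markers (903 to 1046 in knockout, 618 to 771 in wild type), and lower for adipocyte markers (457 to 528 in knockout, 796 to 999 in wild type). Among Schwann and neuron markers Ncam1, Uchl1 and Cnp rose 2.73-fold, 2.75-fold and 1.19-fold, with S100b and Ngfr detected on no array. Of the chondrocyte and osteoblast markers Sox9, Col2a1 and Bglap rose, with Acan, Comp, Sp7 and Ibsp detected on no array. Bglap, detected on no wild-type array, was tested through knockout arrays alone. In the adipocyte list Pparg fell 2.37-fold and Lpl did not pass (limma adjusted p = 0.846). Adipoq, Fabp4, Plin1 and Cidec were detected on no array. The leukocyte sums overlapped (533 to 556 in knockout, 530 to 625 in wild type), with Ptprc detected on no array, Lyz2 and Cd3e at least 2.4-fold and 1.87-fold higher, and Cd14 3.34-fold lower. Lyz2 and Cd3e were likewise detected on no wild-type array and tested through knockout arrays alone. The part of these lists in the members' changes was not tested.

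Among the 32 tested members, 14 rose and 12 fell in cells labelled knockout. Of all 8302 genes tested, 57.6% passed (26.9% higher and 30.7% lower), at a limma p-value adjusted over all probes of under 0.05. The largest rises among members were those of Inhbb, a subunit of activin B, at least 10.2-fold, and of Tgfbi, a TGF-beta-induced matrix protein, 9.77-fold. Tgfb3 and Fst, which encodes the activin-binding protein follistatin, rose 2.52-fold and 2.29-fold. Bmp4 fell 2.74-fold, and the BMP antagonist Grem1, the latency proteins and the ligands Tgfb1 and Tgfb2 fell by less than 2-fold at their brightest probes. The SMADs and receptors moved by at most 1.37-fold at their brightest probes. In RNA from sorted cells as a bulk, a change in the share of cells of a type and a change in RNA per cell cannot be told apart.

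**Figure D1:**
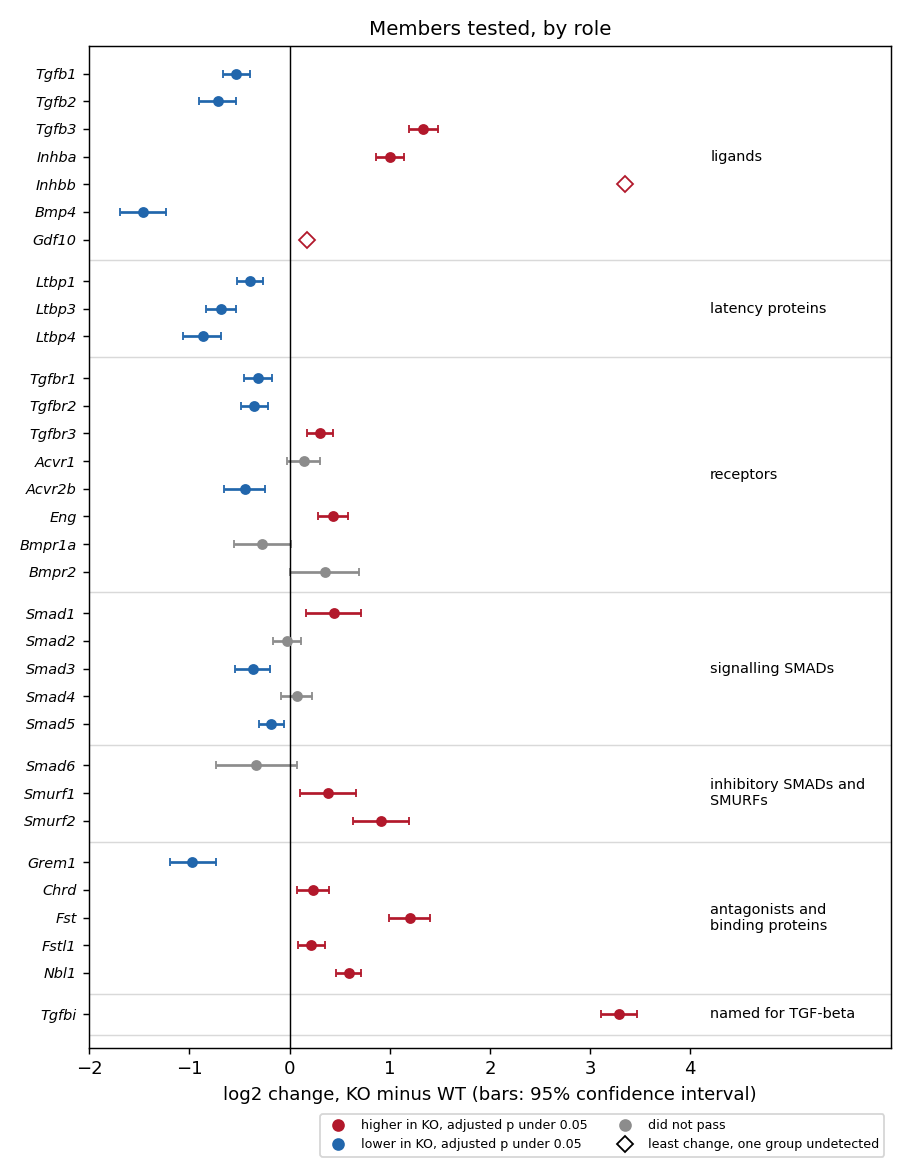
Log2 change (knockout minus wild type, horizontal axis) of the 32 tested members, grouped by role, with 95% confidence intervals from the limma fit; red and blue points passed an adjusted p of 0.05 (14 higher, 12 lower) and grey points did not (6). Open diamonds, at 3.35 for Inhbb and 0.17 for Gdf10, are the least change where no wild-type array detected the probe, Tgfbi lies at 3.29, and Bmp4 at -1.46 lies farthest to the left.

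The share of members past the threshold, 26 of 32, is to be read against that wide background. The 4 arrays of one genotype lay wholly to one side of the other 4 for 26 of 32 members, where 53.5% of all genes tested did so. The median absolute log2 change was 0.43 over the tested members and 0.27 over all genes tested, or 0.41 and 0.27 with such bounds. Of the 32 members, 5 (Tgfb3, Inhbb, Bmp4, Fst and Tgfbi) passed with a change of at least 2-fold, where 10.1% of all genes tested did so, with a group that no array detected set at its bound. A further limit is that 3 members passed the filter through knockout arrays alone or mostly, namely Inhbb and Gdf10, detected on all 4 knockout arrays and on 0 wild-type arrays, and Bmpr2, detected on 4 knockout arrays and 1 wild-type array. Inhbb and Gdf10 therefore had to differ to be tested at all, and the counts and medians of tested members are not counts of all members.

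The largest changes among members with a RefSeq promoter sequence (build GRCm38.p6) were those of Inhbb, Tgfbi and Bmp4. Their 250 bases before the annotated start are shown because these genes changed most in both directions. Capitals mark matches to CAGAC, the core of the SMAD box, or to GGCGCC, a GC-rich SMAD motif. Each sequence runs 5′ to 3′ on the gene's strand.
Inhbb (chr1:119422249-119422498, minus strand): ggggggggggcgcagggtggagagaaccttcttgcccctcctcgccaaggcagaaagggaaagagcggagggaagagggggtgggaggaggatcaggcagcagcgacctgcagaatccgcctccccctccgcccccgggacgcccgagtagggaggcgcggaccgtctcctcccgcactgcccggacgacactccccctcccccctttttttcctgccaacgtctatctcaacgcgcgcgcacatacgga
Tgfbi (chr13:56609336-56609585, plus strand): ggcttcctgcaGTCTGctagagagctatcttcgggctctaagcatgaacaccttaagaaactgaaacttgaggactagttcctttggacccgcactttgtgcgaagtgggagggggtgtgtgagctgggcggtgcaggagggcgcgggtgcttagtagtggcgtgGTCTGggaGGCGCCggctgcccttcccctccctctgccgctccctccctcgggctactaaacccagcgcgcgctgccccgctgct
Bmp4 (chr14:46390670-46390919, minus strand): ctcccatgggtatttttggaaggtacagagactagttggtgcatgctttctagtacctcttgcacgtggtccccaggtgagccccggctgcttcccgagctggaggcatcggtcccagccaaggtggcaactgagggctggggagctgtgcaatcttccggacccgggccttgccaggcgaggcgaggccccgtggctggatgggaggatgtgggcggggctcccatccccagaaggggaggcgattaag
In these windows only the Tgfbi promoter held a match, with CAGAC on the opposite strand 239 to 235 and 85 to 81 bases before the start and GGCGCC 77 to 72 bases before it. The search took both strands and also covered the palindrome GTCTAGAC and the AP-1 motif TGANTCA, which occurred in none of the 3. Over all 32851 promoters of the same length, 42.2% held CAGAC, 9.59% GGCGCC, 0.167% GTCTAGAC and 6.75% TGANTCA. Of 41 promoters that belong to 34 members, 21 held CAGAC, 11 held GGCGCC, 0 held GTCTAGAC and 0 held TGANTCA. Member promoters also had more G and C, with a median of 68% against 52.4% over all promoters. A match is a description of these letters and not a binding site.

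Ligands moved in opposite directions, with 4 higher and 3 lower in knockout among the 7 tested. All 7 passed, beside 57.6% of all genes (26.9% higher and 30.7% lower). Of the higher ones, Inhbb and Gdf10 were tested through knockout arrays alone. Inhba and Inhbb encode the beta subunits of activin A and activin B, which also form the inhibins with the alpha subunit encoded by Inha. Inhbb had log2 intensities of 9.20, 8.98, 9.10 and 9.36 on knockout arrays, against 5.13, 5.59, 5.14 and 5.27 on wild-type arrays. All 4 knockout arrays detected the transcript and none of the wild-type arrays did, where the detection p-values ran from 0.0777 to 0.239. In the deposited linear units this corresponds to intensities of 547, 495, 538 and 640 on knockout arrays and of 8.79, 30.6, 8.92 and 15 on wild-type arrays. Since the wild-type level is only bounded, the rise is given as at least 10.2-fold, the knockout mean over the mean of, on each wild-type array, whichever was greater of this probe's value and the dimmest value of any detected probe. The adjusted p of the filtered fit is not independent of how Inhbb came to be tested, and in a fit to all probes with no filter on detection the limma adjusted p was 5.83e-09. The fitted log2 change against the undetected group depended on the background correction, at 3.88 by neqc and 2.71 under normexp with an offset of 50, where Tgfbi changed by 3.16.

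Inhba, already bright, read 13.40, 13.47, 13.45 and 13.53 in knockout and 12.43, 12.46, 12.40 and 12.58 in wild type. No knockout array overlapped a wild-type array. The rise rounds to 2-fold (log2 change 1.00, standard error 0.06, limma adjusted p = 4.86e-07). Before rounding it fell just short of 2-fold, so Inhba is not among the members counted above at that size. Inha, the partner that turns activin into inhibin, was not detected on any array (detection p-values from 0.192 to 0.474 in knockout and from 0.127 to 0.158 in wild type).

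The TGF-beta isoforms share receptors and each is secreted as a latent complex, yet their transcripts did not move together. Tgfb3 read 10.03, 10.23, 10.16 and 10.07 in knockout and 8.81, 8.87, 8.73 and 8.75 in wild type, a rise of 1.33 on the log2 scale (standard error 0.07, limma adjusted p = 9.29e-08). Tgfb1 read 7.79, 7.88, 7.93 and 7.81 in knockout and 8.40, 8.36, 8.34 and 8.45 in wild type. Tgfb2 read 7.41, 7.55, 7.58 and 7.53 in knockout and 8.25, 8.40, 8.22 and 8.06 in wild type. For each isoform the groups did not overlap, with Tgfb3 higher and the other two lower on every knockout array. Tgfb1 fell 1.45-fold (limma adjusted p = 3.47e-05) and Tgfb2 fell 1.64-fold (limma adjusted p = 3.66e-05). Within each array, the log2 value of Tgfb3 minus that of Tgfb1 averaged 2.27 ± 0.06 in knockout and 0.40 ± 0.09 in wild type, and that of Tgfb3 minus Tgfb2 averaged 2.61 ± 0.06 in knockout and 0.55 ± 0.10 in wild type (SD, n = 4 each). These pairs were chosen after their values were seen, so the shifts of 1.87 and 2.05 are given without a test.

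Bmp4, a BMP ligand that acts through SMAD1 and SMAD5, read 8.46, 8.50, 8.40 and 8.44 in knockout and 10.12, 10.08, 9.77 and 9.66 in wild type. The knockout arrays lay close together (8.45 ± 0.04, SD, n = 4) and the wild-type arrays spread more widely (9.90 ± 0.23, SD, n = 4), without overlap. It fell by 1.46 on the log2 scale (standard error 0.10, limma adjusted p = 1.25e-06). Gdf10, also called BMP3B, read 6.30, 5.83, 5.96 and 5.81 in knockout and 4.93, 5.04, 4.78 and 4.85 in wild type. It was at the edge of detection, with knockout detection p-values from 0.0163 to 0.0489 and none detected in wild type. It too came to be tested through knockout arrays alone, its rise is bounded only at 1.13-fold or more, and in the fit to all probes with no filter the limma adjusted p was 3.6e-05. That fit, too, compares Gdf10 with wild-type values that were not detected. Its fitted log2 change was 1.08 by neqc, 0.76 under normexp with an offset of 50 and 1.39 without background correction. Bmp2, Bmp6 and Gdf6 were not detected on any array, with detection p-values from 0.237 to 0.964 over the 3 probes, so Bmp4 was the only tested member named as a BMP.

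**Figure D2:**
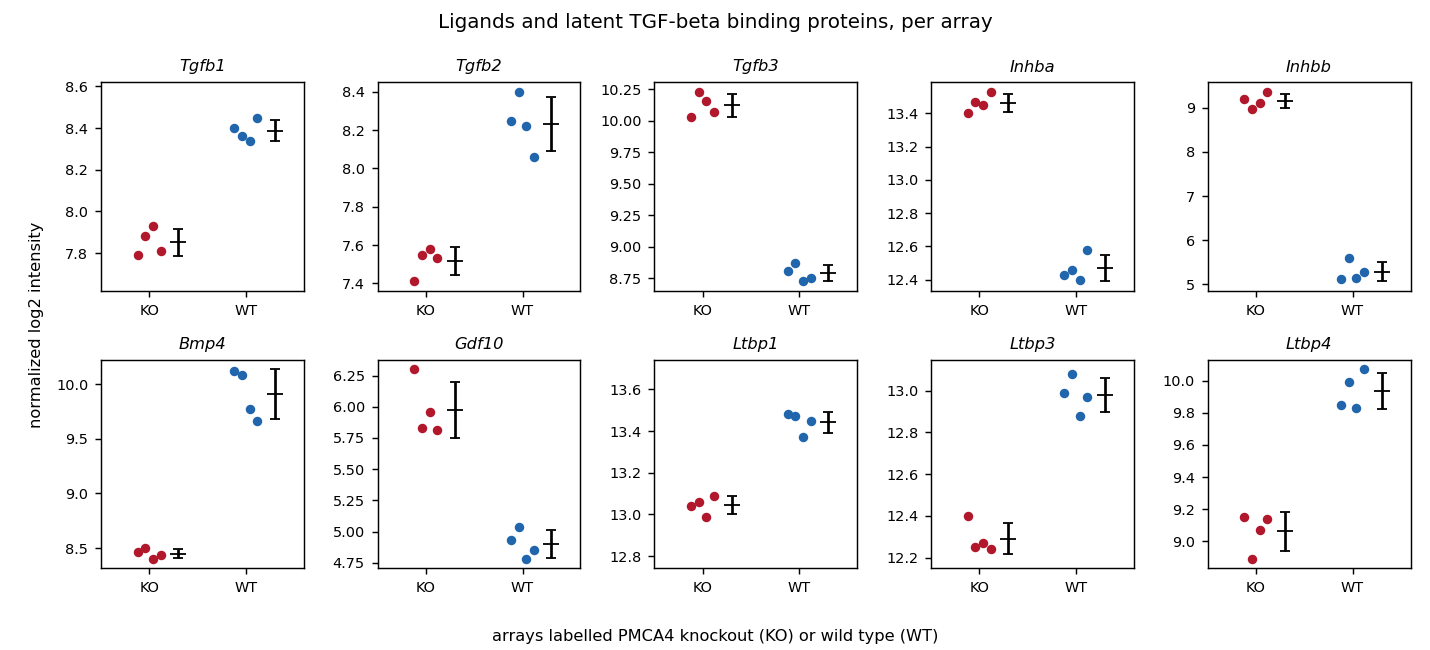
Normalized log2 intensity (vertical axis, own scale in each panel) of the 7 tested ligands and 3 tested latent TGF-beta binding proteins on 4 arrays labelled knockout (KO, red) and 4 labelled wild type (WT, blue); points are arrays and bars are the mean ± SD. The groups do not overlap in any panel, with Tgfb3, Inhba, Inhbb and Gdf10 higher and the other 6 genes lower in knockout. Of all genes tested, 53.5% did not overlap, and Inhbb and Gdf10 were tested through knockout arrays alone.

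The latent TGF-beta binding proteins tie secreted TGF-beta to the matrix, and all 3 tested members fell. Of all genes tested, 57.6% passed and 30.7% were lower. Ltbp3 read 12.40, 12.25, 12.27 and 12.24 in knockout and 12.99, 13.08, 12.88 and 12.97 in wild type, a fall of 1.61-fold (limma adjusted p = 1.25e-05), and its other probe fell 2.07-fold. Ltbp4 read 9.15, 8.89, 9.07 and 9.14 in knockout and 9.85, 9.99, 9.83 and 10.07 in wild type, a fall of 1.83-fold (limma adjusted p = 1.02e-05). A second Ltbp4 probe fell 1.56-fold, and the remaining one, near background, had a log2 difference of -0.23 (limma adjusted p = 0.146). The mean of the 3 Ltbp4 probes changed by -0.58, against -0.87 for the brightest. Ltbp1 was the least changed of the family, with 13.04, 13.06, 12.99 and 13.09 in knockout and 13.48, 13.47, 13.37 and 13.45 in wild type, a fall of 1.32-fold (limma adjusted p = 0.000194). Of its 6 probes, a second fell 1.59-fold, another near background differed by 0.00 (limma adjusted p = 0.99), and 3 were not tested. Ltbp2 was not detected on any array (detection p-values from 0.0514 to 0.130 in knockout and from 0.101 to 0.221 in wild type).

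Receptor transcripts moved little, with 2 higher, 3 lower and 3 not passing among the 8 tested of 11. Of the 8 tested, 62.5% passed, a share close to the 57.6% of all genes. The signalling receptors of TGF-beta, Tgfbr1 (type I) and Tgfbr2 (type II), both fell. Tgfbr1 read 11.36, 11.43, 11.33 and 11.37 in knockout and 11.66, 11.79, 11.59 and 11.74 in wild type, a fall of 0.32 on the log2 scale (limma adjusted p = 0.0017). Tgfbr2 read 12.40, 12.39, 12.38 and 12.38 in knockout and 12.77, 12.82, 12.64 and 12.75 in wild type, a fall of 0.36 (limma adjusted p = 0.000541), and its second probe fell by 0.26 (limma adjusted p = 0.0398) with groups that overlapped. For both genes the brightest probe put every knockout array below every wild-type array. A second Tgfbr1 probe near background differed by -0.06 (limma adjusted p = 0.692), and the mean of both tested Tgfbr1 probes changed by -0.19. The remaining Tgfbr1 probes were detected on no array, with detection p-values from 0.0589 to 0.9925.

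The co-receptors Tgfbr3 (betaglycan, which presents TGF-beta to its receptors and binds inhibin) and Eng (endoglin, an accessory receptor of TGF-beta and BMP9) rose. Tgfbr3 read 9.95, 9.97, 9.90 and 9.98 in knockout and 9.57, 9.73, 9.67 and 9.61 in wild type, a rise of 0.30 on the log2 scale (limma adjusted p = 0.00161), and its second probe rose by 0.44 (limma adjusted p = 0.0345). Eng read 11.24, 11.29, 11.27 and 11.39 in knockout and 10.75, 10.91, 10.94 and 10.87 in wild type, a rise of 0.43 (limma adjusted p = 0.000319). Eng is best known from endothelium. The 11 endothelial markers on the array summed to a normalized intensity of 694 to 747 in knockout and of 696 to 764 in wild type, 7 of them were detected on no array of knockout and 7 on no array of wild type, and of the 3 tested Flt1 rose and Esam and Plvap fell. Acvrl1 (ALK1), the type I receptor that pairs with endoglin, was not detected on any array (detection p-values from 0.158 to 0.279 in knockout and from 0.350 to 0.706 in wild type).

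Among activin and BMP receptors, Acvr2b, an activin type II receptor, read 5.83, 6.24, 5.87 and 6.05 in knockout and 6.44, 6.37, 6.50 and 6.48 in wild type, a fall of 1.37-fold close to background (limma adjusted p = 0.00187). With the normexp correction at offset 50 in place of neqc, its log2 change was -0.24, against -0.45. Acvr1 (ALK2), a type I receptor for BMPs, averaged 10.00 ± 0.10 in knockout and 9.87 ± 0.09 in wild type (SD, n = 4 each, limma adjusted p = 0.133), and the 95% confidence interval of its log2 difference ran from -0.03 to 0.30. Bmpr1a (ALK3) averaged 9.41 ± 0.24 in knockout and 9.69 ± 0.18 in wild type at its brightest probe (SD, n = 4 each, limma adjusted p = 0.0886), with an interval from -0.56 to 0.01, and its second probe differed by 0.02. Bmpr2, the main BMP type II receptor, was detected on 1 wild-type array and averaged 6.07 ± 0.06 in knockout and 5.73 ± 0.37 in wild type (SD, n = 4 each, limma adjusted p = 0.079), and without wild-type replicate 3, which read 6.18, its log2 difference was 0.50 (limma adjusted p = 0.00466). For these 3 genes the groups overlapped at the brightest probe. The other Bmpr2 probe, detected on 2 knockout arrays and 0 wild-type arrays and so not tested, read 5.99, 6.28, 5.73 and 5.67 in knockout and 5.27, 5.47, 5.23 and 5.36 in wild type, without overlap. The activin receptors Acvr1b and Acvr2a were not detected on any array, with detection p-values from 0.173 to 0.608 over both.

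**Figure D3:**
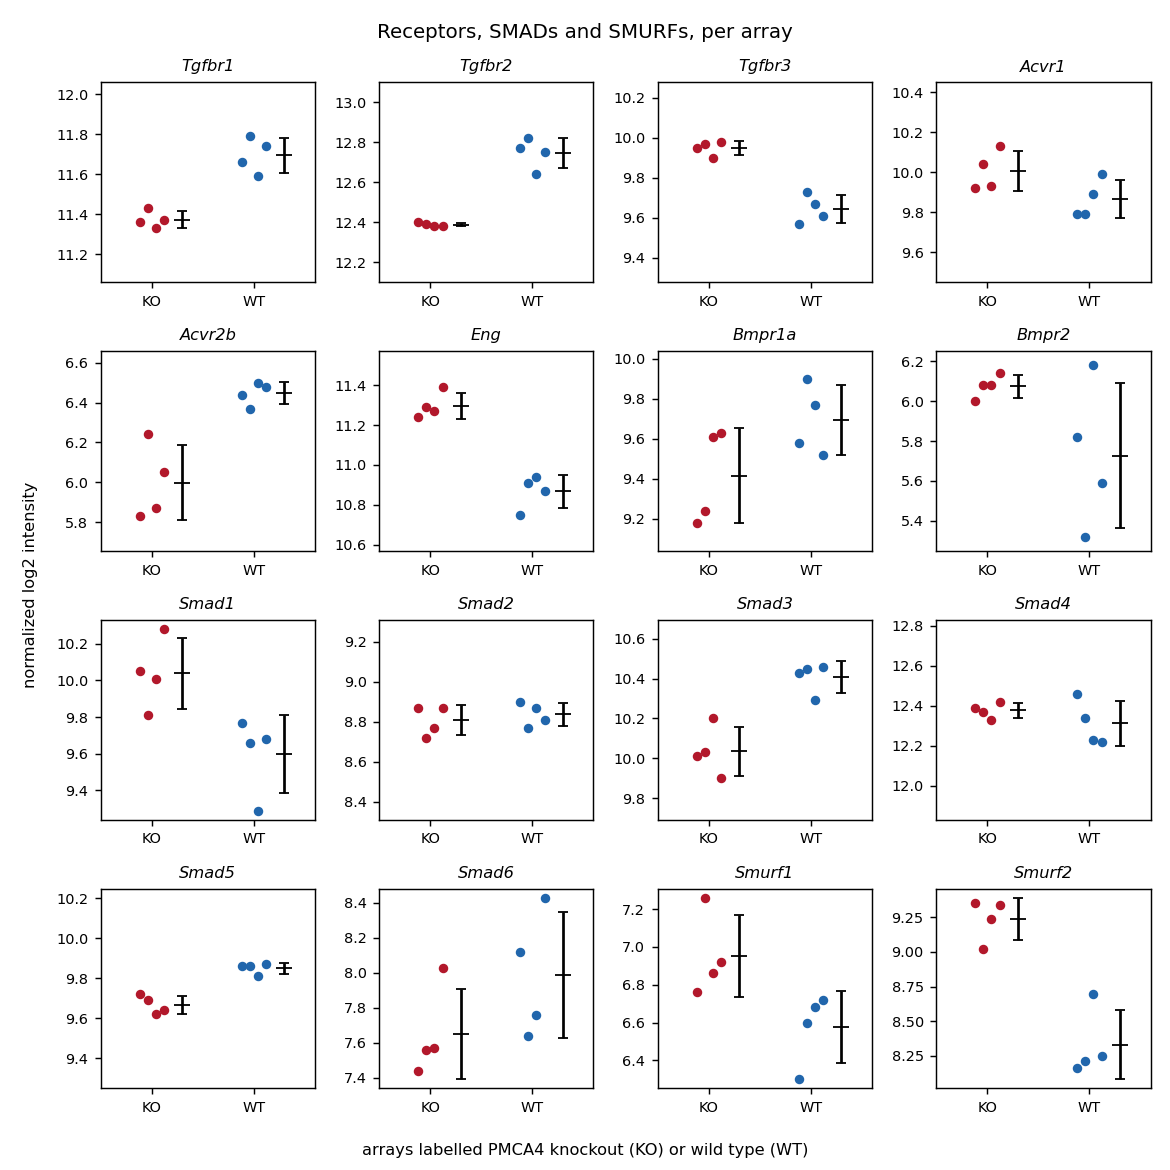
Normalized log2 intensity (vertical axis, own scale in each panel) of 8 receptors, 5 signalling SMADs, Smad6 and 2 SMURFs on 4 arrays labelled knockout (KO, red) and 4 labelled wild type (WT, blue); points are arrays and bars are the mean ± SD. Smurf2 shows the widest gap, at 9.24 against 8.33 on average, and the groups overlap for Acvr1, Bmpr1a, Bmpr2, Smad2, Smad4 and Smad6.

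All 5 signalling SMADs were detected on every array and none changed by more than 1.36-fold. Smad4, the common partner of all receptor-regulated SMADs, read 12.39, 12.37, 12.33 and 12.42 in knockout and 12.46, 12.34, 12.23 and 12.22 in wild type. Its groups overlapped and the interval of the log2 difference ran from -0.09 to 0.22 (limma adjusted p = 0.441). Smad2 averaged 8.81 ± 0.07 in knockout and 8.84 ± 0.06 in wild type (SD, n = 4 each, limma adjusted p = 0.728), with an interval from -0.17 to 0.11. Its TGF-beta partner Smad3 read 10.01, 10.03, 10.20 and 9.90 in knockout and 10.43, 10.45, 10.29 and 10.46 in wild type, a fall of 1.30-fold without overlap (limma adjusted p = 0.00221).

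On the BMP side, Smad1 read 10.05, 9.81, 10.01 and 10.28 in knockout and 9.77, 9.66, 9.29 and 9.68 in wild type, a rise of 1.36-fold (limma adjusted p = 0.0121). A second Smad1 probe rose 1.30-fold, another near background differed by 0.07 (limma adjusted p = 0.796), and the mean of the 3 probes changed by 0.29 on the log2 scale, against 0.44. Smad5 read 9.72, 9.69, 9.62 and 9.64 in knockout and 9.86, 9.86, 9.81 and 9.87 in wild type at its brightest probe, a fall of 1.14-fold (limma adjusted p = 0.0146). The call on Smad5 rests on that probe, since the other 2 differed by -0.06 and 0.21 without passing and the mean of the 3 changed by -0.01 (limma adjusted p = 0.86).

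Of the intracellular brakes on the pathway, the SMURF ubiquitin ligases, which mark SMADs and receptors for degradation, rose. Smurf2 read 9.35, 9.02, 9.24 and 9.34 in knockout and 8.16, 8.21, 8.70 and 8.25 in wild type, a rise of 1.87-fold (limma adjusted p = 0.000161). Smurf1 read 6.76, 7.26, 6.86 and 6.92 in knockout and 6.30, 6.60, 6.68 and 6.72 in wild type, a rise of 1.30-fold (limma adjusted p = 0.0258). The groups did not overlap for either gene, and for Smurf1 the highest wild-type array almost reached the lowest knockout array. The Smurf1 call was lost without wild-type replicate 1 (log2 change 0.28, limma adjusted p = 0.0606) and without knockout replicate 2 (0.27, limma adjusted p = 0.0605), and its change was 0.23 under normexp with an offset of 50. Smad6, an inhibitory SMAD of the BMP branch, read 7.44, 7.56, 7.57 and 8.03 in knockout and 8.12, 7.64, 7.76 and 8.43 in wild type. These groups overlapped (limma adjusted p = 0.138), and without knockout replicate 4 the log2 difference was -0.46 (limma adjusted p = 0.0499). Its second probe differed by -0.43 (limma adjusted p = 0.0925).

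Of the antagonists and binding proteins, 5 of 9 were tested, and 4 rose and 1 fell (100% passed, beside 57.6% of all genes). Follistatin binds activins and neutralises them. Fst read 11.41, 11.49, 11.50 and 11.62 in knockout and 10.09, 10.25, 10.40 and 10.49 in wild type, a rise of 1.20 on the log2 scale (standard error 0.09, limma adjusted p = 2.28e-06). Both Fst and the activin subunit Inhba were thus higher on every knockout array, and within arrays the log2 value of Inhba minus that of Fst averaged 1.96 ± 0.04 in knockout and 2.16 ± 0.15 in wild type (SD, n = 4 each), a shift of -0.20 given without a test.

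Grem1 (gremlin 1) binds BMP2 and BMP4 and keeps them from their receptors. It read 11.84, 12.15, 12.03 and 12.23 in knockout and 13.09, 13.03, 12.84 and 13.16 in wild type, a fall of 1.95-fold (log2 change -0.97, standard error 0.10, limma adjusted p = 1.86e-05). Bmp4 and its antagonist were both lower on every knockout array, and the log2 value of Bmp4 minus that of Grem1 averaged -3.62 ± 0.17 in knockout and -3.12 ± 0.26 in wild type (SD, n = 4 each). Nbl1 (DAN), a BMP antagonist of the gremlin family, read 12.73, 12.66, 12.70 and 12.69 in knockout and 12.12, 12.19, 12.04 and 12.09 in wild type, a rise of 1.5-fold (limma adjusted p = 1.37e-05).

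Of the 5, chordin and the follistatin-like protein FSTL1 changed least. Chrd read 8.18, 8.07, 8.06 and 7.96 in knockout and 7.90, 7.90, 7.84 and 7.70 in wild type, a rise of 1.18-fold (limma adjusted p = 0.018) that was lost without knockout replicate 1 (log2 change 0.20, limma adjusted p = 0.0509). Fstl1 read 13.20, 13.09, 13.22 and 13.24 in knockout and 13.02, 12.97, 13.01 and 12.90 in wild type, a rise of 1.16-fold (limma adjusted p = 0.0133). Noggin (Nog), Chrdl1 and Bambi, a decoy receptor without kinase activity, were not detected on any array, with detection p-values from 0.253 to 1 over their 4 probes.

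Tgfbi encodes a secreted matrix protein that was first found as a TGF-beta-induced transcript, and it binds integrins and collagens. It read 12.66, 12.52, 12.67 and 12.58 in knockout and 9.18, 9.22, 9.38 and 9.49 in wild type at its brightest probe, a rise of 3.29 on the log2 scale (standard error 0.08, limma adjusted p = 5.98e-10). In deposited intensities that probe stood at 6230, 6082, 6614 and 6218 in knockout and at 594, 607, 619 and 692 in wild type. The second Tgfbi probe rose by 3.49 on the log2 scale (limma adjusted p = 1.15e-09). Both probes put every knockout array far above every wild-type array.

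**Figure D4:**
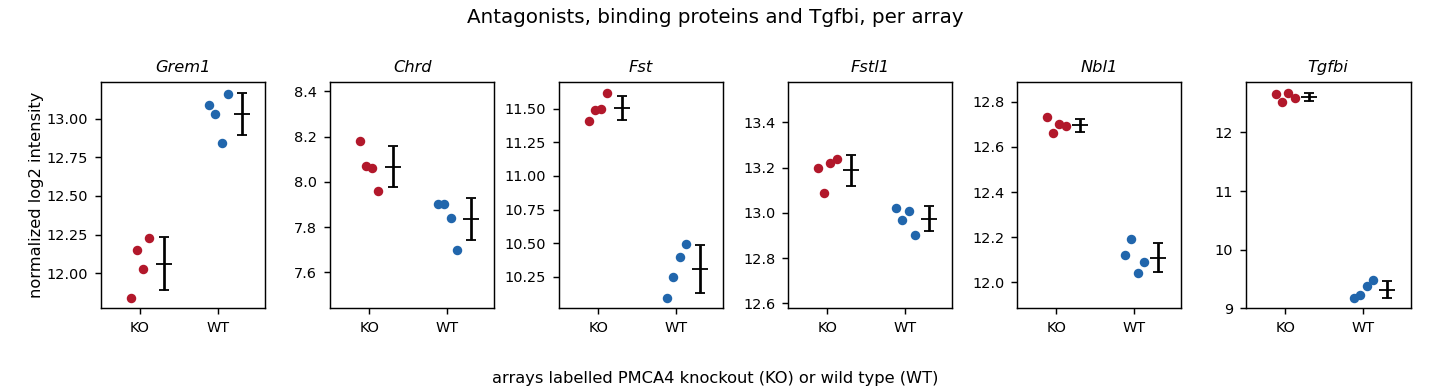
Normalized log2 intensity (vertical axis, own scale in each panel) of 5 secreted antagonists and binding proteins and of Tgfbi on 4 arrays labelled knockout (KO, red) and 4 labelled wild type (WT, blue); points are arrays and bars are the mean ± SD. Grem1 is lower in knockout (12.06 against 13.03 on average), and the other 5 genes are higher, Tgfbi most of all (12.61 against 9.32).

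Beyond the members, 104 other genes of the pathway and its known targets were on the array and 63 were tested, of which 28 rose, 9 fell and 26 did not pass (58.7% passed, beside 57.6% of all genes). Of 5 further receptors and co-receptors tested, 3 rose and 1 fell (80% passed, beside 57.6% of all genes). Rgma and Rgmb, repulsive guidance molecules that act as BMP co-receptors, rose 6.68-fold (limma adjusted p = 3.58e-06) and 3.29-fold (limma adjusted p = 7.77e-08), the BMP type I receptor Bmpr1b rose 2.30-fold, and the TGF-beta co-receptor Cd109 fell 1.70-fold. Of 21 further ligands 2 were tested, and Lefty1, a secreted inhibitor of nodal signalling, rose 1.81-fold. Of 7 further antagonists tested, 2 rose and 3 fell (71.4% passed, beside 57.6% of all genes). The follistatin-like gene Fstl4 was not detected on any knockout array and was at least 4.02-fold lower, the BMP-binding protein gene Bmper rose 2.37-fold, Twsg1 fell 1.39-fold and the protease gene Htra1 rose 1.29-fold.

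Genes outside the members that release or store latent TGF-beta moved by at most 1.39-fold. Of 10 tested, 4 rose and 1 fell (50% passed, beside 57.6% of all genes). Thbs1 (thrombospondin 1, an activator of latent TGF-beta) was 1.39-fold, Itgb1 1.33-fold, Bmp1 1.24-fold and Itgb5 1.15-fold higher. Of 16 intracellular regulators tested, 5 rose, 0 fell and 11 did not pass (31.2% passed, a lower share than the 57.6% of all genes). Those that rose included the ubiquitin ligases Nedd4l and Wwp1, by 2.13-fold and 1.64-fold, Fkbp1a, whose product binds type I receptors, by 1.41-fold, and the endocytic adaptor Dab2 by 1.28-fold. Skil and Pmepa1, feedback inhibitors that TGF-beta itself induces, differed by 0.09 and -0.29 on the log2 scale without passing (limma adjusted p = 0.38 and 0.101).

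Of 20 known TGF-beta-induced genes tested, 12 rose and 2 fell (70% passed, beside 57.6% of all genes, of which 26.9% were higher and 30.7% lower). The median log2 change was 0.43, beside -0.02 over all genes tested. This list was chosen with earlier results of these data known, so the shares and medians describe it and are not a test. The matrix glycoprotein gene Tnc rose 6.84-fold, Lox (lysyl oxidase) 3.29-fold and Col3a1 2.54-fold, while Tsc22d1 fell 2.54-fold. Tagln, Acta2 and Cnn1 of this list are also smooth muscle markers. Matrix genes of this kind are also made by fibroblasts, and 10 of 13 fibroblast markers were higher, as given above. Of 6 known BMP-induced genes tested, 2 rose and 2 fell, a share close to that of all genes (66.7% passed, beside 57.6%). Id1 and Hey1 rose 1.83-fold and 1.80-fold, Msx1 fell 1.21-fold, and Atoh8, detected on no knockout array, was at least 1.15-fold lower. Id2 and Id3 differed by -0.31 and -0.06 on the log2 scale and did not pass (limma adjusted p = 0.171 and 0.691).

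**Figure D5:**
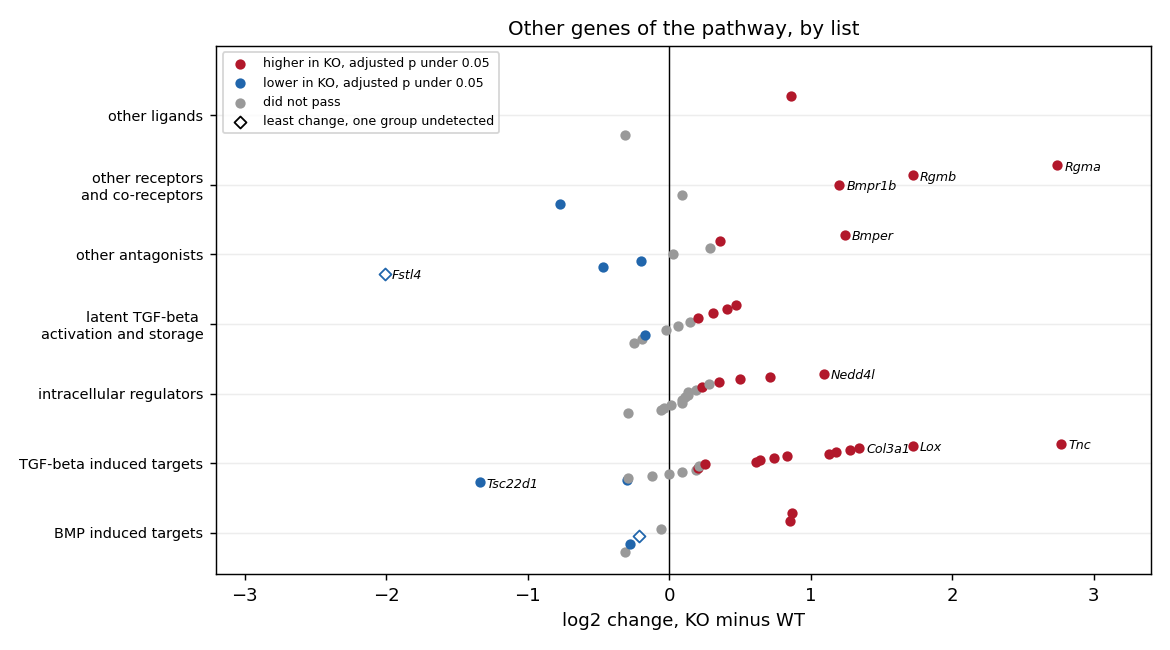
Log2 change (knockout minus wild type, horizontal axis) of tested pathway genes that are not members, 1 row of points per list; red and blue points passed an adjusted p of 0.05 and grey points did not, and named genes with a change of at least 2-fold are labelled. Open diamonds, at -2.01 for Fstl4 and -0.21 for Atoh8, are the least change where no knockout array detected the probe, and Tnc at 2.77 and Rgma at 2.74 lie farthest to the right.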

How the data were processed

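RNA was isolated with the PicoPure kit and amplified to biotinylated cRNA for Illumina arrays, per the labels' protocols. The deposited non-normalized table holds an intensity per probe and array, with 28.42% to 29.69% of values below 0, so background was already subtracted, and a detection p-value beside each, per the file headers. The deposited table of log2 values holds the same distribution in every column (sorted columns differ by at most 0.000531), as quantile normalization gives, and within each array it ranks probes exactly as the intensities do. It served as an alternative. The scanner's software was not given in the sources used here.

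Normalization used limma 3.58.1 (R 4.3.3), function neqc, with offset 16, quantile scaling and log2. On 12040 probes, those detected (p under 0.05) on 4 or more of the 8 arrays, lmFit and eBayes compared the genotypes with no block, and Benjamini-Hochberg adjustment covered all of them at a threshold of 0.05. The brightest tested probe by mean stood for each gene. Probes were named from the platform annotation (23978 with 1 symbol, 1719 with none), with gene identifiers matched to the GRCm38.p6 gene table for 23962. The number of arrays limits precision. Members and lists were chosen with earlier results of these data known. Every member is named, and of each wider list up to 4 genes past the threshold with the largest change, while Skil, Pmepa1, Id2 and Id3 and the within-array pairs were chosen after their values were seen. The fit was tested on simulated data. The alternatives were other background corrections, normalizations, filters, spread models, the mean of a gene's probes, the replicate number as a block, the deposited log2 table, and leaving out each array. Figures were drawn with matplotlib 3.10.9.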

Additional observations from a re-analysis of the deposited data

Results flagged for a closer look

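Among 64 groups of 4 arrays (32 members in both genotypes), 2 held an array far from the other 3, where chance flags about 1 in 20. Smad3 on wild-type replicate 3, at a log2 intensity of 10.29, was the lowest of its group, with a gap to the nearest array of 0.866 of the range. Smurf2 on the same array, at 8.70, was the highest of its group, with a gap of 0.849 of the range. In both cases the array still lay on the wild-type side of the knockout group, and without it both members passed in the same direction (log2 changes of -0.41 and 1.03).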

How the results depend on the processing

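Under 19 alternatives, not all separate checks, 23 of the 26 members past the threshold passed every time, and none of the 26 changed direction. Of their 492 values under the alternatives, 488 passed in the same direction and 4 did not: Smurf1 without wild-type replicate 1 or knockout replicate 2, Chrd without knockout replicate 1, and Smad5 by the mean of its probes. By that mean, 1 signalling SMAD fell in place of 2. Leaving out each array in turn gave 13 to 15 members higher and 12 to 14 lower, 1 to 2 of the SMURFs and inhibitory SMADs higher (1 without wild-type replicate 1 or knockout replicate 2) and 0 to 1 of them lower (1 without knockout replicate 4), with 2884 to 3139 probes higher and 3333 to 3533 lower. Without knockout replicate 2 the difference of Smad2, -0.03 in all arrays, turned to 0.00 (limma adjusted p = 0.99), and over the arrays left out in turn it ran from -0.05 to 0.00. The replicate numbers showed no strong pairing of the arrays. Same-numbered arrays' deviations from their group means correlated at -0.0294 to 0.0871, and 2 of 4 knockout arrays correlated best with their own number. With so few arrays a weak pairing could be missed. With the replicate block, 1 inhibitory SMAD was lower in place of 0 (Smad6, log2 difference -0.34, limma adjusted p = 0.0327). Bmpr1a passed under normexp with an offset of 50, with an intensity trend and robust spread, and without knockout replicate 4 (limma adjusted p from 0.0456 to 0.0496), and Bmpr2 passed with array weights and without wild-type replicate 3. Gdf10, Acvr2b and Bmpr2 were not tested at a detection p under 0.01. Signal over background limits these 3 members and the 11 that were not tested. Some alternatives repeat others: the deposited log2 table and the fit without background correction gave the same counts of probes and members. The other detection filters, the trend and robust spread model and the replicate block left the log2 changes of members as they were. Direction could not change under those settings.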
